A study of Homo sapiens with 12 samples.

Results

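The genes described here are 57 genes whose products act late in the cell cycle, from the G2 phase through mitosis to the division of the cell. They were chosen by symbol, as a list of known G2 and mitosis genes, and all 57 were found among the 58735 genes of the count table. RNA was sequenced in 12 samples of HK-2 cells, an established line of human proximal tubule epithelium that was immortalized with oncogenes of a human papillomavirus. The 3 control samples received water. The iohexol group (75 mg I/mL, an iodinated contrast medium), the cisplatin group (5 μM, a platinum compound that forms DNA adducts) and the vancomycin group (4 mM, a glycopeptide antibiotic) had 3 samples each and were treated for 48 h, as cell models of drug-induced acute kidney injury. All 4 groups were grown in the same serum-containing medium.

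Total counts were between 14057282 and 18177109 per sample, and the 57 genes held between 0.411% and 1.00% of them. Levels are given as CPM, the count relative to the total count of the sample after its scaling by trimmed means of M values (TMM). A count of 3, taken as the floor of detection, was equal to between 0.177 and 0.218 CPM, which allows for counting error alone. The labelled cell type was checked against marker genes. GGT1, MME and DPP4, surface enzymes of the proximal tubule, were found at 189.5, 62.8 and 139.9 CPM on average in the control samples, and the epithelial keratin KRT8 at 494 CPM. The list of such enzymes and surface proteins had 5 genes, which summed to 375, 409.7 and 398 CPM in the control samples. Its other members, ANPEP among them, thus held little of the sum. SLC22A6, an organic anion transporter of the intact proximal tubule, had 0 counts in all 12 samples, and LRP2 (megalin) and SLC34A1, a phosphate transporter, averaged 0 and 0.314 CPM in the control samples, at or near the floor.

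In the G2 phase, cyclins A and B bind the kinase CDK1, which is held inactive by phosphorylation until CDC25 phosphatases release it. Active CDK1, with Polo-like and Aurora kinases, drives chromosome condensation and the building of the spindle, and the spindle checkpoint then holds the cell until every kinetochore is attached to microtubules. The anaphase-promoting complex, switched on by CDC20, ends this state by marking securin and cyclin B for destruction, after which the sisters separate and the cell divides. Most of these genes are transcribed in G2 and little in resting cells, which ties their RNA to the share of cells that cycle. Repressor complexes (DREAM) bind their promoters at a short element, the cell cycle genes homology region, often paired with CCAAT boxes. In RNA of a whole culture, fewer cells in G2 or mitosis and less of such RNA in each cell cannot be told apart.

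Promoter windows from RefSeq (GRCh38.p14, from 250 bases before to 50 bases after each transcription start) were matched to 48 of the 57 genes, in 60 windows. The core letters of the homology region, TTTGAA, were searched on both strands and were in the windows of 35 of these 48 genes (72.9%), against 18.2% of 27305 genes with a window. Within the 50 bases before the start they were in 21 of the 60 windows (35.0%), against 2.56% of all 35116 windows. CCAAT, on both strands, was in the windows of 37 of the 48 genes (77.1%), against 39.7% of all genes. Windows of a gene held both words for 56.2% of the 48 genes and for 7.26% of all genes. The 120 bases before the RefSeq start are shown for 5 genes, with both words in capitals on either strand. In GENCODE 29, exons of the gene cover 9 bases of the NEK2 window, 14 of that of KIF4A and 19 of that of KIF2C. The windows of MKI67, KIF11 and KIF4A are examples with the homology word close to the start, that of NEK2 has CCAAT alone, and that of KIF2C neither.
MKI67 (chr10:128126424-128126543, minus strand): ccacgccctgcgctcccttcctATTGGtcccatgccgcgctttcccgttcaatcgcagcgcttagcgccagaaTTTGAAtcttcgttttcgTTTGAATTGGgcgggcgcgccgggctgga
KIF11 (chr10:92593010-92593129, plus strand): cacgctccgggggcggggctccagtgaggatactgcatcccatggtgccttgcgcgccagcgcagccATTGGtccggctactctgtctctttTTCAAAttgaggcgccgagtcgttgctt
KIF4A (chrX:70289984-70290103, plus strand): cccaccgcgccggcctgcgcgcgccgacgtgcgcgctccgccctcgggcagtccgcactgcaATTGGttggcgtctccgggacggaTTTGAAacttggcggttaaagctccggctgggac
NEK2 (chr1:211675622-211675741, minus strand): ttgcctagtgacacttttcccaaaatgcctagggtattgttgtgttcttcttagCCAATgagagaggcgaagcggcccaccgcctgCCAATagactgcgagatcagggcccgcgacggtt
KIF2C (chr1:44739717-44739836, plus strand): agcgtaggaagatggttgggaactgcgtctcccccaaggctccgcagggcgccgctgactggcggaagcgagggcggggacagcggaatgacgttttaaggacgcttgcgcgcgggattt
In the MKI67 window the homology word began at positions -47 and -29 relative to the start, and the latter shared a base with a CCAAT box. In KIF11 it began at -28 with a CCAAT box at -53, and in KIF4A at -34 with a CCAAT box at -58. A match of these letters is a description of the sequence and not evidence of binding.

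The 57 genes were expressed over a wide range in the control group. Per length, as FPKM (CPM per kilobase of the gene), TPX2 was highest (106 ± 4.95, SD, n = 3), followed by UBE2C (99.5 ± 3.87), CDC20 (95.4 ± 5.95), TOP2A (94.6 ± 7.62) and ANLN (88.5 ± 10.5). These 5 neighbours in the order were not separated by more than their spread. The lowest were SPC24 (7.53 ± 0.774), KIF15 (5.80 ± 0.666), NUSAP1 (3.72 ± 0.594), CDC25C (3.66 ± 0.261) and PRC1 (0.157 ± 0.0113). The counts of PRC1 and NUSAP1 are uncertain, because 57.6% and 62.2% of their exon bases also lie in another protein-coding gene model on the same strand, and the 12 samples held 204 and 2030 counts in all for them. All 57 genes passed the filter on low counts in each comparison.

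Before the groups were compared, the replicates were set beside each other. The third iohexol sample stood apart from the other iohexol samples. The chi-square per degree of freedom between its counts and theirs was 17.5 and 16.5, whereas the other pair of iohexol samples gave 3.82. The first control sample gave 8.03 and 10.8 against the other control samples, which gave 3.24 between them, and the second vancomycin sample gave 13.1 and 9.66 against the others of its group, which gave 6.24. Cisplatin pairs gave 2.34 to 2.66. The summed level of the 57 genes in the third iohexol sample was 8572 CPM, compared with 7136 and 7028 CPM in the other iohexol samples and 9615, 8940 and 8569 CPM in the control samples. Cisplatin samples had 8915, 8853 and 8800 CPM, within the control range, and vancomycin samples 4992, 4752 and 4606 CPM, below every control sample. These sums are dominated by the most abundant genes, so each gene was also set against its own control mean. The median over the 57 genes of this log2 ratio (of CPM + 0.5) was -0.33, -0.37 and -0.099 in the iohexol samples, -0.031, 0.00025 and -0.061 in the cisplatin samples and -0.82, -0.78 and -0.87 in the vancomycin samples. In the control samples it was 0.087, -0.010 and -0.085.

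**Figure D1:**
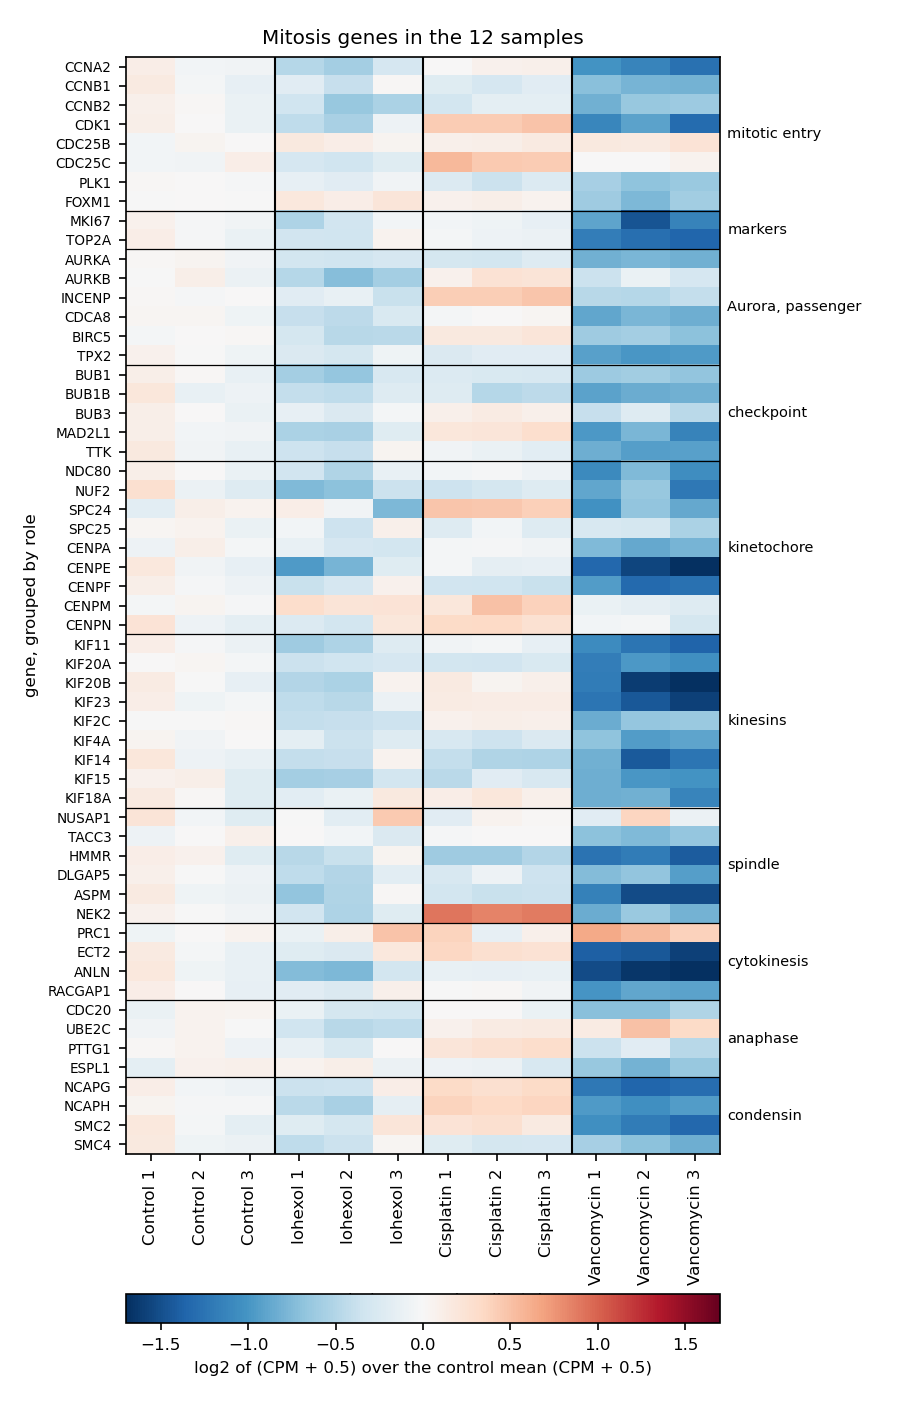
Level of each of the 57 mitosis genes (rows, grouped by role) in each of the 12 samples (columns), as log2 of CPM + 0.5 over the control mean of CPM + 0.5; blue is below and red above the control mean. The vancomycin columns are blue in nearly all rows, the third iohexol sample is paler than the other iohexol samples, and the cisplatin columns hold both colours.

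Nearly the whole list was lower with vancomycin. Compared with the control group, 50 of the 57 genes (87.7%) were down-regulated and 1, UBE2C, was up-regulated at an adjusted p under 0.05, beside 28.8% and 29% of the 15819 genes tested. The median log2 fold change of the 57 genes was -0.89, and that of all genes -0.0084. With a log2 fold change also below -1, 22 of the 57 were down-regulated DEGs, beside 7.65% of all genes. The largest called rise of the list was 0.29. The vancomycin samples lay below every control sample for 51 genes and above every control sample for 3, beside 29.3% and 33.9% of all genes tested. With library size in place of TMM 51 genes were down-regulated, beside 33% of all genes. The 6 genes without a call were CDC25B, CDC25C, CENPM, CENPN, NUSAP1 and PRC1.

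Iohexol had a smaller effect in the same direction. In the comparison of iohexol with the control group, 19 of the 57 genes (33.3%) were down-regulated, beside 9.77% of the 15657 genes tested, and 0 were up-regulated by edgeR, DESeq2 or limma-voom, beside 11.2%; 2 genes were higher at an unadjusted p under 0.05 in edgeR. The median log2 fold change was -0.23, compared with 0.012 over all genes. Changes of the list ran from -0.60 to 0.28, beside quartiles of all genes at -0.21 and 0.28. The iohexol samples lay below every control sample for 29 genes and above for 3, beside 19.4% and 18.6% of all genes. This count depended on single samples. Without the third iohexol sample 35 genes were down-regulated and 1 was up-regulated, beside 13.5% and 14.8% of all genes, and the 19 were among the 35. Without the second iohexol sample 6 were down-regulated, beside 6.17% of all genes, without the first 8 (beside 6.77%), without the first control sample 9 (beside 7.84%) and without the second control sample 10 (beside 5.07%). With the replicate number as a block 9 were down-regulated, beside 5.84% of all genes. CCNB2, AURKB, BIRC5, ANLN and UBE2C were called lower in each of these 6 fits, and the other 14 genes lost the call in at least 1 of them. The fit without the third control sample is not among these 6.

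Cisplatin moved the genes in both directions. Of the 57 genes, 15 were up-regulated and 17 down-regulated compared with the control group, beside 29.2% and 30.6% of the 15876 genes tested, so that the shares of 26.3% and 29.8% were close to those of all genes. The median log2 fold change was -0.036, against 0.0074 over all genes. Changes of the list ran from -0.57 to 0.89, beside quartiles of all genes at -0.41 and 0.42. The median of the list was -0.071 without the third control sample and -0.0038 without the first. The cisplatin samples lay above every control sample for 18 genes and below for 15, beside 32.6% and 32.5% of all genes. The split between the directions depended on the scaling. With library size in place of TMM, 31 genes were higher and 3 lower, beside 43.6% and 20.4% of all genes, the median of all genes moved to 0.23 and that of the 57 genes to 0.18, and the share of higher calls among all called genes rose from 48.9% to 68.1%. CENPF, KIF14 and HMMR were the 3 genes lower with library size, so that the other falls of the list with cisplatin were not called with it. No gene changed from a call in one direction to a call in the other, and the median of the 57 genes less that of all genes was -0.043 with either scaling. The values given below are scaled by TMM, with which the median change of all genes is close to 0.

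**Figure D2:**
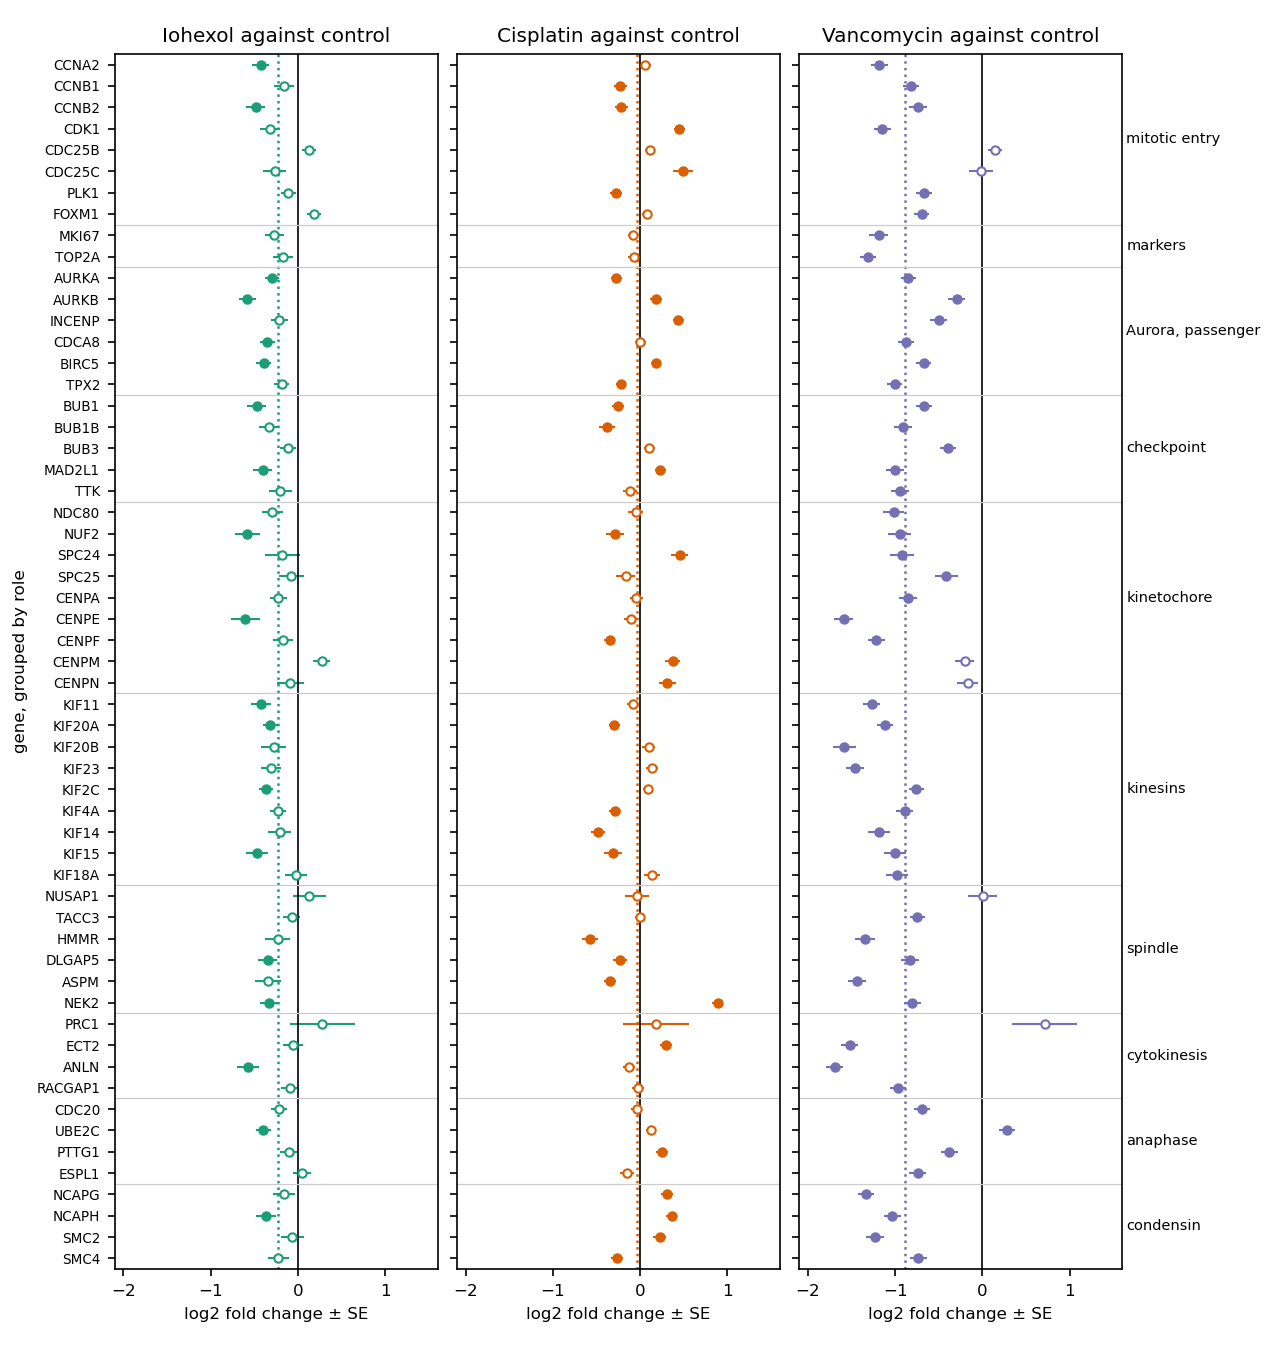
Log2 fold change (x axis) of each of the 57 genes (rows, grouped by role) with iohexol, cisplatin and vancomycin against the control group, with its standard error as a bar; filled points passed an adjusted p of 0.05 and open points did not, and the dotted line is the median of the 57 genes. The dotted line stands at -0.23 with iohexol, -0.036 with cisplatin and -0.89 with vancomycin, and UBE2C is the only filled point to the right of 0 with vancomycin.

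The markers of proliferation fell with vancomycin. MKI67, which encodes the Ki-67 protein that coats mitotic chromosomes (GRCh38, chr10:128096659-128126385, minus strand), was measured at 664, 618 and 605 CPM in the control samples, 437, 502 and 607 CPM with iohexol, 611, 600.1 and 572 CPM with cisplatin and 338, 228 and 286 CPM with vancomycin. The vancomycin samples lay well below the others, while the iohexol and cisplatin samples overlapped the control samples. Its log2 fold change with vancomycin was -1.19 ± 0.11 (adjusted p = 2.29e-09), a level 2.28-fold lower, and the changes with iohexol (-0.27 ± 0.11, adjusted p = 0.101) and cisplatin (-0.083 ± 0.06, adjusted p = 0.213) did not pass the test. TOP2A, the topoisomerase that untangles sister chromatids, was measured at 661, 602 and 563 CPM in the control samples, 486, 480.5 and 635 CPM with iohexol, 593, 575 and 567 CPM with cisplatin and 268, 251 and 239 CPM with vancomycin. Again only the vancomycin samples were clear of the control samples, with a log2 fold change of -1.31 ± 0.09 (adjusted p = 1.24e-11). With iohexol and cisplatin it was -0.17 and -0.075, without a call.

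The members are described by role, and the counts of each role stand beside shares of all genes tested of 28.8% lower and 29% higher with vancomycin, 9.77% and 11.2% with iohexol and 30.6% and 29.2% with cisplatin. The roles hold 2 to 9 genes each, and the counts were not tested against these shares or between roles. Of the 8 genes of entry into mitosis, 6 were down-regulated with vancomycin, 2 with iohexol and 3 with cisplatin, and cisplatin up-regulated 2. CCNA2, the A-type cyclin of S phase and G2, was found at 182, 163 and 161 CPM in the control samples, 121, 113 and 138 CPM with iohexol, 169.7, 177 and 179.7 CPM with cisplatin and 83.2, 77.2 and 69.4 CPM with vancomycin. Both the iohexol and the vancomycin samples were below all control samples, and the cisplatin samples overlapped them. The log2 fold change was -0.43 ± 0.10 with iohexol (adjusted p = 0.00908) and -1.18 ± 0.09 with vancomycin (adjusted p = 2.04e-10). CCNB1, the main B-type cyclin of mitotic entry, was found at 214, 189 and 174 CPM in the control samples, 169, 147 and 195 CPM with iohexol, 167, 158 and 168 CPM with cisplatin and 117, 111 and 110.0 CPM with vancomycin. It fell with vancomycin (-0.82 ± 0.09, adjusted p = 7.27e-08) and slightly with cisplatin (-0.23 ± 0.07, adjusted p = 0.0127), without overlap in either case, while the third iohexol sample lay inside the control range. The call with cisplatin was lost with library size, with all 12 samples in the fit and without the second cisplatin sample. CCNB2, the other B-type cyclin, was down-regulated with all 3 drugs, with log2 fold changes of -0.49 with iohexol, -0.22 with cisplatin and -0.74 with vancomycin.

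CDK1, the kinase that these cyclins activate (chr10:60778331-60794852, plus strand), was called higher with cisplatin, unlike CCNA2 (no call), CCNB1 and CCNB2 (lower). Its levels were 222, 209 and 193 CPM in the control samples, 154, 142 and 195 CPM with iohexol, 279, 279.9 and 290.1 CPM with cisplatin and 96.2, 110.1 and 83.9 CPM with vancomycin. The cisplatin samples were all above and the vancomycin samples all below the control samples, and the third iohexol sample lay among the controls. CDK1 was up-regulated with cisplatin (0.45 ± 0.06, adjusted p = 1.04e-05) and down-regulated with vancomycin (-1.15 ± 0.10, adjusted p = 6.88e-10), and its change with iohexol was -0.33 (adjusted p = 0.0632). CDC25C, a phosphatase that activates CDK1, was measured at 11.8, 11.67 and 13.2 CPM in the control samples, 9.95, 9.59 and 10.6 CPM with iohexol, 18.1, 16.7 and 16.7 CPM with cisplatin and 12.3, 12.2 and 12.8 CPM with vancomycin. Cisplatin raised it above every control sample (0.49 ± 0.11, adjusted p = 0.00117), and the vancomycin samples overlapped the controls. Part of the exon bases of CDC25C (8.78%) is shared with FAM53C on the opposite strand. The counts of FAM53C were 731, 959 and 874 in the control samples and 1892, 1756 and 1839 with cisplatin. If the counting did not use the strand, the counts of CDC25C may be affected. CDC25B, the related phosphatase, had no call with any drug and log2 fold changes of 0.13, 0.11 and 0.15.

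PLK1, the Polo-like kinase, was found at 117, 116 and 114 CPM in the control samples, 105, 100.5 and 111 CPM with iohexol, 98.3, 89.5 and 98.1 CPM with cisplatin and 77.8, 71.5 and 74.4 CPM with vancomycin. Each drug group lay below the control samples. The fall was called with cisplatin (-0.28 ± 0.06, adjusted p = 0.00144) and vancomycin (-0.67 ± 0.09, adjusted p = 6.83e-07) and not with iohexol (-0.11 ± 0.08, adjusted p = 0.381). FOXM1, a transcription factor that drives genes of this list, was measured at 116, 117 and 117 CPM in the control samples, 132, 127 and 135 CPM with iohexol, 123, 125 and 122 CPM with cisplatin and 76.5, 68.8 and 77.2 CPM with vancomycin. The iohexol and cisplatin samples were just above all controls without a call (0.19 and 0.078), and the vancomycin samples were below them (-0.70 ± 0.09, adjusted p = 4.85e-07). Part of its exons (15.9%) is shared with ITFG2 on the opposite strand, and the counting may not have used the strand.

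**Figure D3:**
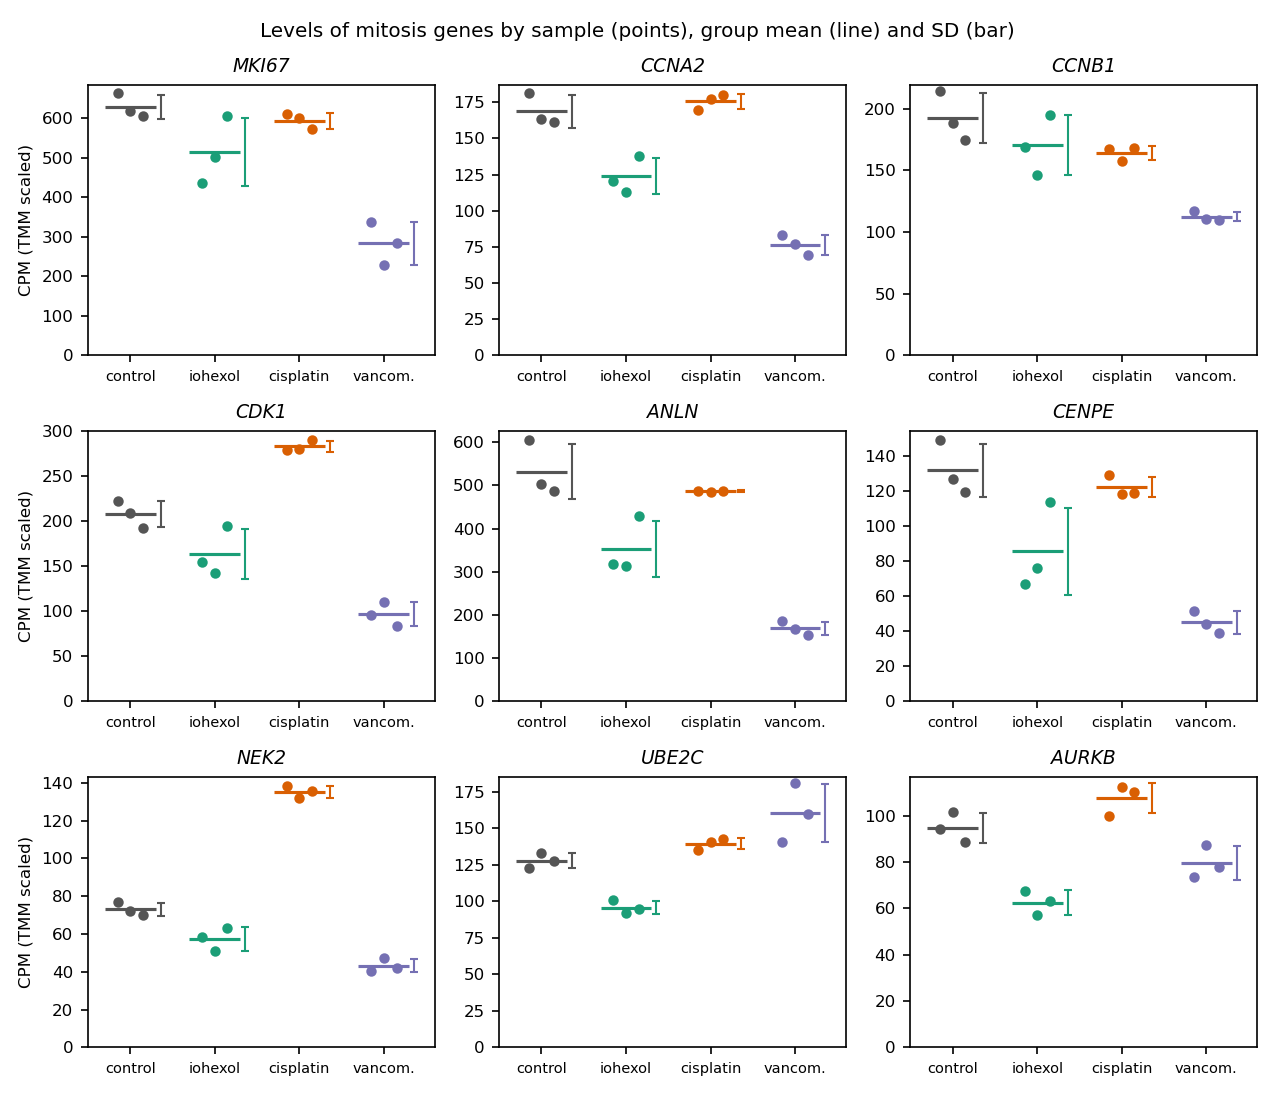
Levels (CPM, y axis from 0) of 9 of the mitosis genes in the 3 samples of each group (points), with the group mean (line) and SD (bar). Vancomycin points lie below all control points except for UBE2C, where they lie above, and the cisplatin points of CDK1 and NEK2 lie above all others.

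Among the Aurora kinases and the chromosomal passenger complex, all 6 genes were down-regulated with vancomycin, 4 with iohexol and 2 with cisplatin, and 3 were up-regulated with cisplatin. AURKA, the Aurora kinase of the spindle poles, was found at 169, 173 and 161 CPM in the control samples, 135, 133 and 137 CPM with iohexol, 137, 136 and 144 CPM with cisplatin and 95.4, 98.1 and 94.6 CPM with vancomycin. All 9 drug-treated samples were below the control samples, and the fall was called with iohexol (-0.29 ± 0.08, adjusted p = 0.0232), cisplatin (-0.27 ± 0.06, adjusted p = 0.000904) and vancomycin (-0.85 ± 0.09, adjusted p = 9.38e-09). TPX2, which activates AURKA on the spindle, fell to 2-fold lower levels with vancomycin (-1.004 ± 0.08) and less with cisplatin (-0.21). AURKB, the kinase of the passenger complex, was measured at 94.1, 102 and 88.5 CPM in the control samples, 67.4, 57.0 and 63.2 CPM with iohexol, 100.1, 112 and 110.1 CPM with cisplatin and 73.5, 87.5 and 77.9 CPM with vancomycin. In contrast to most of the list it was lowest with iohexol, whose samples lay below those of every other group. Its log2 fold change was -0.58 ± 0.10 with iohexol (adjusted p = 0.00142), 0.18 ± 0.07 with cisplatin (adjusted p = 0.0376), where 1 sample overlapped the controls, and -0.30 ± 0.09 with vancomycin (adjusted p = 0.00993). The rise of AURKB with cisplatin was lost without the filter, with all 12 samples in the fit and without the third control or the second or the third cisplatin sample, and its fall with vancomycin without the second control or the first vancomycin sample. The call of AURKA with iohexol was lost with library size, with the replicate block and without the first or second sample of either group. Of the partners of AURKB, INCENP, the scaffold, had log2 fold changes of 0.44 with cisplatin and -0.50 with vancomycin, and BIRC5 (survivin) of 0.18 and -0.67, all called. CDCA8 (borealin) was called with vancomycin (-0.87) and iohexol (-0.35) and was at -0.00098 with cisplatin.

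All 5 genes of the spindle checkpoint were down-regulated with vancomycin, and 2 with iohexol. With cisplatin 2 were down-regulated and 1 up-regulated. BUB1, a checkpoint kinase of the kinetochore, was found at 168, 158 and 144 CPM in the control samples, 105, 99.4 and 129.6 CPM with iohexol, 133, 131 and 129.9 CPM with cisplatin and 102, 104 and 98.6 CPM with vancomycin. Every drug-treated sample was below the control samples, with log2 fold changes of -0.47 ± 0.11 (adjusted p = 0.00972), -0.25 ± 0.07 (adjusted p = 0.00342) and -0.67 ± 0.09 (adjusted p = 7.56e-07) for iohexol, cisplatin and vancomycin. BUB1B, which encodes the checkpoint protein BubR1, was measured at 85.1, 68.6 and 70.2 CPM in the control samples, 56.4, 55.3 and 64.0 CPM with iohexol, 63.8, 53.2 and 54.9 CPM with cisplatin and 39.3, 41.3 and 42.2 CPM with vancomycin. Its fall with cisplatin (-0.38 ± 0.09, adjusted p = 0.00187) was among the 3 largest of the list for that drug, and the cisplatin samples did not overlap the controls. MAD2L1, the checkpoint protein Mad2, went the other way with cisplatin (0.23 ± 0.07, adjusted p = 0.00576) while falling with iohexol (-0.41) and vancomycin (-1.002). TTK, the kinase that starts checkpoint signalling, was called with vancomycin alone (-0.94), as was BUB3 (-0.40), which recruits both BUB proteins to the kinetochore.

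Of the 9 kinetochore and centromere genes, 7 were down-regulated with vancomycin and 2 with iohexol, and cisplatin up-regulated 3 and down-regulated 2. CENPE, a kinesin that moves chromosomes to the spindle equator, had the largest fall with iohexol and the second largest with vancomycin. Its levels were 149, 127 and 119 CPM in the control samples, 67.1, 75.9 and 114 CPM with iohexol, 129, 118 and 119 CPM with cisplatin and 51.7, 44.4 and 38.9 CPM with vancomycin. The iohexol samples were spread widely, with the third close to the lowest control sample, and the vancomycin samples lay below all others. The log2 fold change was -0.60 ± 0.17 with iohexol (adjusted p = 0.0226) and -1.59 ± 0.11 with vancomycin (adjusted p = 1.81e-11). CENPF, a large kinetochore protein that accumulates in G2, was found at 726, 664 and 636 CPM in the control samples, 518, 552 and 709.6 CPM with iohexol, 539.7, 532 and 518 CPM with cisplatin and 348, 270.1 and 279.9 CPM with vancomycin. The cisplatin and vancomycin samples were below all controls (-0.35 ± 0.06, adjusted p = 5.99e-05, and -1.22 ± 0.10, adjusted p = 2.89e-10), and the third iohexol sample lay among the controls.

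The 4 subunits of the NDC80 complex, which holds microtubules at the kinetochore, all fell with vancomycin, with log2 fold changes of -1.02 for NDC80, -0.95 for NUF2, -0.92 for SPC24 and -0.41 for SPC25. NUF2 was measured at 83.8, 64.8 and 59.3 CPM in the control samples, 41.2, 42.7 and 53.6 CPM with iohexol, 54.2, 56.3 and 59.6 CPM with cisplatin and 37.4, 44.2 and 29.5 CPM with vancomycin. Its iohexol samples were below all controls (-0.58 ± 0.14, adjusted p = 0.0142), and with cisplatin 1 sample reached just above the lowest control (-0.29 ± 0.10, adjusted p = 0.0225). SPC24 was found at 18.9, 23.0 and 22.3 CPM in the control samples, 23.2, 20.4 and 12.4 CPM with iohexol, 29.9, 29.6 and 28.4 CPM with cisplatin and 10.2, 13.3 and 11.5 CPM with vancomycin. Cisplatin raised it in all samples (0.45 ± 0.10, adjusted p = 0.000777), so that 2 subunits of the same complex had calls in opposite directions with this drug. The fall of NUF2 with cisplatin was not called with library size in place of TMM. CENPA, the histone that marks the centromere, fell with vancomycin (-0.85). CENPM and CENPN, of the constitutive centromere network, were up-regulated with cisplatin (0.37 and 0.31) and had no call with the other drugs. Part of the exon bases of CENPN (12.8%) is shared with CMC2 on the opposite strand. The counts of CMC2 were 388, 384 and 339 in the control samples and 537, 538 and 488 with cisplatin. If the counting did not use the strand, reads in the shared bases may have been dropped or joined.

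All 9 kinesin motors were down-regulated with vancomycin, with a median log2 fold change of -1.11, and 4 each with iohexol and cisplatin. KIF11, the motor that pushes the spindle poles apart, was found at 175, 159 and 150.1 CPM in the control samples, 106, 112 and 139 CPM with iohexol, 155, 158 and 146 CPM with cisplatin and 76.5, 68.0 and 62.3 CPM with vancomycin. Both the iohexol and the vancomycin samples lay below all controls (-0.42 ± 0.11, adjusted p = 0.0184, and -1.27 ± 0.10, adjusted p = 1.07e-10), and the cisplatin samples overlapped them. KIF20B, a motor of late mitosis, was measured at 159, 143 and 130.3 CPM in the control samples, 102, 99.0 and 151 CPM with iohexol, 159.9, 149 and 153 CPM with cisplatin and 63.1, 46.7 and 38.7 CPM with vancomycin. The vancomycin samples had a 2.99-fold lower level than the controls (-1.58 ± 0.13, adjusted p = 2.73e-10), and the other groups overlapped the controls. KIF14, which acts in cytokinesis, was found at 117, 96.3 and 93.7 CPM in the control samples, 77.0, 78.1 and 107 CPM with iohexol, 76.8, 71.5 and 70.8 CPM with cisplatin and 57.6, 37.6 and 43.0 CPM with vancomycin. Cisplatin (-0.49 ± 0.08, adjusted p = 7.99e-05) and vancomycin (-1.19 ± 0.13, adjusted p = 2.75e-08) lowered it below all controls. KIF23, a motor of the central spindle, fell with vancomycin (-1.46), and KIF20A, which carries the passenger complex to the central spindle, fell with each drug (-0.32, -0.30 and -1.11). KIF15, a motor that can stand in for KIF11, also fell with each drug (-0.47, -0.31 and -1.005). KIF2C, a depolymerase of microtubules whose window held neither promoter word, fell with iohexol (-0.37) and vancomycin (-0.76), and KIF4A, a chromosome-bound motor, with cisplatin (-0.29) and vancomycin (-0.89). KIF18A, which limits the swings of chromosomes, was called with vancomycin alone (-0.98).

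Among the 6 genes of the spindle and centrosome, 5 were down-regulated with vancomycin, 2 with iohexol and 3 with cisplatin, and cisplatin up-regulated 1. NEK2 and HMMR held the largest rise and the largest fall of the list with cisplatin. NEK2, the kinase that parts the centrosomes before mitosis (chr1:211658657-211675630, minus strand), was found at 76.9, 72.4 and 69.9 CPM in the control samples, 58.2, 50.8 and 63.3 CPM with iohexol, 138, 132 and 135 CPM with cisplatin and 40.6, 47.1 and 41.8 CPM with vancomycin. Each cisplatin sample was above and each iohexol and vancomycin sample below all controls. The log2 fold change was 0.89 ± 0.07 with cisplatin (adjusted p = 3.38e-09), a 1.85-fold higher level, -0.33 ± 0.10 with iohexol (adjusted p = 0.0396) and -0.80 ± 0.10 with vancomycin (adjusted p = 2.43e-07). HMMR, a hyaluronan receptor that also binds the spindle, was measured at 64.4, 62.4 and 51.2 CPM in the control samples, 42.6, 45.6 and 61.4 CPM with iohexol, 39.0, 38.8 and 41.9 CPM with cisplatin and 24.7, 25.7 and 21.9 CPM with vancomycin. The cisplatin (-0.57 ± 0.09, adjusted p = 3.25e-05) and vancomycin (-1.34 ± 0.12, adjusted p = 6.23e-10) samples lay below all controls, and the iohexol samples overlapped them. ASPM, a protein of the spindle poles, fell with vancomycin (-1.44) and cisplatin (-0.35), DLGAP5, which stabilizes spindle microtubules, fell with each drug (-0.35, -0.23 and -0.83), and TACC3, which crosslinks them, with vancomycin alone (-0.75).

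Of the 4 genes of cytokinesis, 3 were down-regulated with vancomycin, among them the largest fall of the list. Iohexol down-regulated 1 and cisplatin up-regulated 1. ANLN (anillin), which organizes the contractile ring (chr7:36389806-36453791, plus strand), was found at 605, 504 and 487 CPM in the control samples, 318, 313 and 429 CPM with iohexol, 488, 484 and 488 CPM with cisplatin and 185, 169 and 154 CPM with vancomycin. All iohexol and vancomycin samples were below the controls, and the 3 cisplatin samples lay close to the lowest control sample. ANLN was 3.24-fold lower with vancomycin (-1.69 ± 0.10, adjusted p = 7.44e-13) and 1.49-fold lower with iohexol (-0.58 ± 0.13, adjusted p = 0.00729). ECT2, the exchange factor that activates RhoA at the division plane, was measured at 403, 354 and 333 CPM in the control samples, 315, 307 and 410.4 CPM with iohexol, 464, 439.8 and 433 CPM with cisplatin and 138, 133 and 120.1 CPM with vancomycin. Cisplatin raised it (0.29 ± 0.07, adjusted p = 0.00135) and vancomycin lowered it (-1.52 ± 0.09, adjusted p = 2.2e-12), both without overlap with the controls. RACGAP1, a partner of KIF23 in the central spindle, fell with vancomycin (-0.97). PRC1, which bundles microtubules of the central spindle, had no call, and its counts are uncertain as described.

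Of the 4 genes of anaphase, 3 were down-regulated and 1 was up-regulated with vancomycin, 1 was down-regulated with iohexol and 1 up-regulated with cisplatin. CDC20, the activator of the anaphase-promoting complex, was found at 181, 203 and 200.2 CPM in the control samples, 180.5, 158 and 156 CPM with iohexol, 195, 195 and 179.6 CPM with cisplatin and 118, 119 and 136 CPM with vancomycin. The vancomycin samples were below all controls (-0.69 ± 0.09, adjusted p = 5.91e-07), and so were the iohexol samples without a call (-0.22 ± 0.09, adjusted p = 0.114). UBE2C, the ubiquitin-conjugating enzyme that works with this complex (chr20:45812576-45816957, plus strand), was measured at 123, 133 and 127 CPM in the control samples, 101, 91.9 and 94.7 CPM with iohexol, 135, 141 and 142 CPM with cisplatin and 141, 181 and 160.0 CPM with vancomycin. It was the only gene of the list up-regulated with vancomycin, with all vancomycin samples above the controls (0.29 ± 0.09, adjusted p = 0.0114), and it was down-regulated with iohexol (-0.40 ± 0.09, adjusted p = 0.00626). The call with vancomycin was lost with library size in place of TMM and without the second vancomycin sample. PTTG1 (securin), which holds separase inactive, was found at 84.2, 86.5 and 78.5 CPM in the control samples, 75.9, 69.4 and 83.3 CPM with iohexol, 95.5, 99.5 and 102 CPM with cisplatin and 64.6, 72.9 and 59.8 CPM with vancomycin. The cisplatin samples were above (0.25 ± 0.07, adjusted p = 0.00355) and the vancomycin samples below the controls (-0.38 ± 0.10, adjusted p = 0.00166). ESPL1 (separase), which cuts the cohesin ring, fell with vancomycin (-0.74) and had no call otherwise.

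All 4 condensin genes, whose products compact chromosomes, were down-regulated with vancomycin, with a median of -1.13. With cisplatin 3 were up-regulated and 1 was down-regulated, and with iohexol 1 was down-regulated. SMC4, a core ATPase of condensin, was found at 386, 326 and 319.9 CPM in the control samples, 256.2, 266 and 351 CPM with iohexol, 298, 279 and 283 CPM with cisplatin and 233, 212 and 194 CPM with vancomycin. The cisplatin (-0.27 ± 0.07, adjusted p = 0.00359) and vancomycin (-0.74 ± 0.10, adjusted p = 5.75e-07) samples were below all controls, and the third iohexol sample overlapped them. SMC2, the partner ATPase, went up with cisplatin (0.22 ± 0.08, adjusted p = 0.0197), with overlapping samples, and down with vancomycin (-1.23). NCAPG, a regulatory subunit, was measured at 156, 139 and 135 CPM in the control samples, 111, 112 and 156 CPM with iohexol, 181, 173 and 179.7 CPM with cisplatin and 61.3, 56.2 and 58.0 CPM with vancomycin. Its cisplatin samples were above (0.31 ± 0.07, adjusted p = 0.000638) and its vancomycin samples below the controls (-1.34 ± 0.09, adjusted p = 1.81e-11). NCAPH, the subunit that closes the condensin ring, rose with cisplatin (0.36) and fell with iohexol (-0.37) and vancomycin (-1.03). Exons of NCAPG and SMC4 overlap genes on the opposite strand for 33.1% and 18.5% of their bases (LCORL and TRIM59). If the counting did not use the strand, reads in these bases may have been dropped or joined.

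The calls of the members with the 3 drugs are given side by side as a description. The comparisons share the control samples, and joint patterns of calls were not set against those of all genes. AURKA, BUB1, CCNB2, DLGAP5, KIF15, KIF20A and NUF2 were called lower in each comparison. With library size none of these was called lower with cisplatin, and AURKA, DLGAP5 and KIF20A were not called with iohexol. With the replicate block AURKA, DLGAP5, KIF15 and KIF20A were not called with iohexol. AURKB, BIRC5, MAD2L1, NCAPH and NEK2 were called higher with cisplatin and lower with the other drugs. With the replicate block MAD2L1, NCAPH and NEK2 were not called with iohexol, nor were NCAPH and NEK2 with library size. CDK1, ECT2, INCENP, NCAPG, PTTG1, SMC2 and SPC24 were called higher with cisplatin and lower with vancomycin, without a call with iohexol.

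The drugs were also compared with each other, by contrasts within a single fit of the 12 samples (17073 genes). Cisplatin exceeded iohexol in 27 of the 57 genes and was below it in 1, HMMR (-0.32 ± 0.12, adjusted p = 0.0341), beside 26% and 27.9% of all genes. The largest differences were those of NEK2 (1.24 ± 0.09, adjusted p = 5.57e-10), CDK1 (0.79 ± 0.11, adjusted p = 3.51e-06) and AURKB (0.78 ± 0.09, adjusted p = 4.92e-07), and the median over the 57 genes was 0.21. Vancomycin was below iohexol in 45 genes and above it in 3, beside 27.6% and 29% of all genes, with a median of -0.60. The 3 genes were UBE2C (0.75 ± 0.09), AURKB (0.35 ± 0.09) and CDC25C (0.31 ± 0.12), and the largest differences downwards were those of ECT2 (-1.40 ± 0.10), KIF20B (-1.25 ± 0.15) and NCAPG (-1.11 ± 0.11). Vancomycin was below cisplatin in 52 genes and above it in 1, UBE2C (0.20 ± 0.09, adjusted p = 0.0436), beside 30% and 34.7% of all genes, with a median of -0.75. ECT2 (-1.77 ± 0.10), NEK2 (-1.65 ± 0.09) and KIF20B (-1.64 ± 0.15) differed most. The call of AURKB against iohexol was lost with library size, and that of CDC25C with DESeq2, with library size, without the filter, in a fit of the 6 samples alone, and without the first or second iohexol or the first or the third vancomycin sample. The call of UBE2C against cisplatin was lost with DESeq2, with library size or RLE factors, with either other filter, with the replicate block, in a fit of the 6 samples alone, and without the second control sample, any of the cisplatin samples or the second or the third vancomycin sample. The call of HMMR against iohexol was lost with library size, with the replicate block and without the third iohexol or the first or the second cisplatin sample.

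Genes that restrain the cell cycle, at entry into mitosis or earlier, were measured in the same samples. Their list had 16 genes, of which 15 passed the filter. It includes inhibitors of CDK4 and CDK6, so its counts are not those of mitotic entry alone. Compared with the control group, 2 were up-regulated and 1 down-regulated with iohexol, 9 and 2 with cisplatin, and 6 and 5 with vancomycin. The shares of the 15 genes were 13.3% higher and 6.67% lower with iohexol, beside 11.2% and 9.77% of all genes, 60% and 13.3% with cisplatin, beside 29.2% and 30.6%, and 40% and 33.3% with vancomycin, beside 29% and 28.8%. With iohexol and vancomycin these shares lay near those of all genes. The medians of the list were -0.15, 0.59 and -0.13. CDKN1A (p21), an inhibitor of cyclin-dependent kinases (chr6:36676460-36687339, plus strand), was found at 38.2, 48.0 and 50.5 CPM in the control samples, 75.0, 80.5 and 57.8 CPM with iohexol, 122, 139 and 139 CPM with cisplatin and 276, 293 and 296 CPM with vancomycin. All drug-treated samples were above the controls, and the 4 groups did not overlap. The log2 fold change was 0.66 ± 0.14 with iohexol (adjusted p = 0.00609), 1.55 ± 0.09 with cisplatin (adjusted p = 1.35e-10) and 2.62 ± 0.10 with vancomycin (adjusted p = 5.05e-16), a 6.14-fold higher level. CDKN1C (p57), a related inhibitor, was measured at 38.4, 35.8 and 38.4 CPM in the control samples, 115, 127 and 87.8 CPM with iohexol, 17.7, 15.2 and 17.6 CPM with cisplatin and 90.7, 84.1 and 85.3 CPM with vancomycin. It was up-regulated with iohexol (1.57 ± 0.13) and vancomycin (1.17 ± 0.10) and down-regulated with cisplatin (-1.16 ± 0.10), with no overlap with the controls. CDKN1B (p27) had no call, with log2 fold changes of 0.097, -0.11 and 0.011.

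Of the inhibitors of CDK4 and CDK6, CDKN2A was found at 226, 271 and 266 CPM in the control samples, 201, 181 and 139.6 CPM with iohexol, 228, 221 and 248.6 CPM with cisplatin and 506, 644 and 605 CPM with vancomycin. The vancomycin samples were above (1.16 ± 0.10, adjusted p = 3.72e-10) and the iohexol samples below the controls (-0.53 ± 0.13, adjusted p = 0.0127). CDKN2B rose with cisplatin (0.96), CDKN2D with cisplatin and vancomycin (0.66 and 0.55), and CDKN2C rose with cisplatin (0.29) and fell with vancomycin (-0.37). GADD45A, a stress protein that can inhibit CDK1, was measured at 66.3, 67.6 and 70.6 CPM in the control samples, 64.4, 65.2 and 51.2 CPM with iohexol, 132, 137 and 139 CPM with cisplatin and 114, 132 and 111 CPM with vancomycin. It was up-regulated with cisplatin (0.997 ± 0.06, adjusted p = 4.66e-10) and vancomycin (0.76 ± 0.09, adjusted p = 1.82e-07), without overlap. GADD45B rose with cisplatin (0.59) and fell with vancomycin (-0.29). The calls of CDKN2C and the fall of GADD45B were each lost when 1 of 3 or 4 single samples was left out. SFN, the 14-3-3 protein that retains CDK1 in the cytoplasm, rose with vancomycin (1.11), and BTG2, an antiproliferative gene, with cisplatin (0.88).

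The kinases that hold CDK1 or the checkpoint moved differently between the drugs. PKMYT1, which phosphorylates CDK1 at membranes, was found at 43.3, 50.9 and 50.5 CPM in the control samples, 43.9, 41.8 and 37.6 CPM with iohexol, 79.7, 80.4 and 79.1 CPM with cisplatin and 24.1, 32.5 and 26.6 CPM with vancomycin. The cisplatin samples were above (0.72 ± 0.08, adjusted p = 2.55e-07) and the vancomycin samples below the controls (-0.84 ± 0.12, adjusted p = 1.41e-06). WEE1, which phosphorylates CDK1 in the nucleus, was measured at 116, 110.5 and 108 CPM in the control samples, 107, 99.6 and 117 CPM with iohexol, 81.4, 84.8 and 82.3 CPM with cisplatin and 74.8, 73.3 and 64.6 CPM with vancomycin. It fell with cisplatin (-0.43 ± 0.06, adjusted p = 1.89e-05) and vancomycin (-0.70 ± 0.09, adjusted p = 6.95e-07). CHEK1, a kinase of the DNA damage checkpoint, fell with vancomycin (-0.63), and CHEK2, its counterpart after double-strand breaks, rose with cisplatin (0.74). RPRM was under the filter in every comparison.

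**Figure D4:**
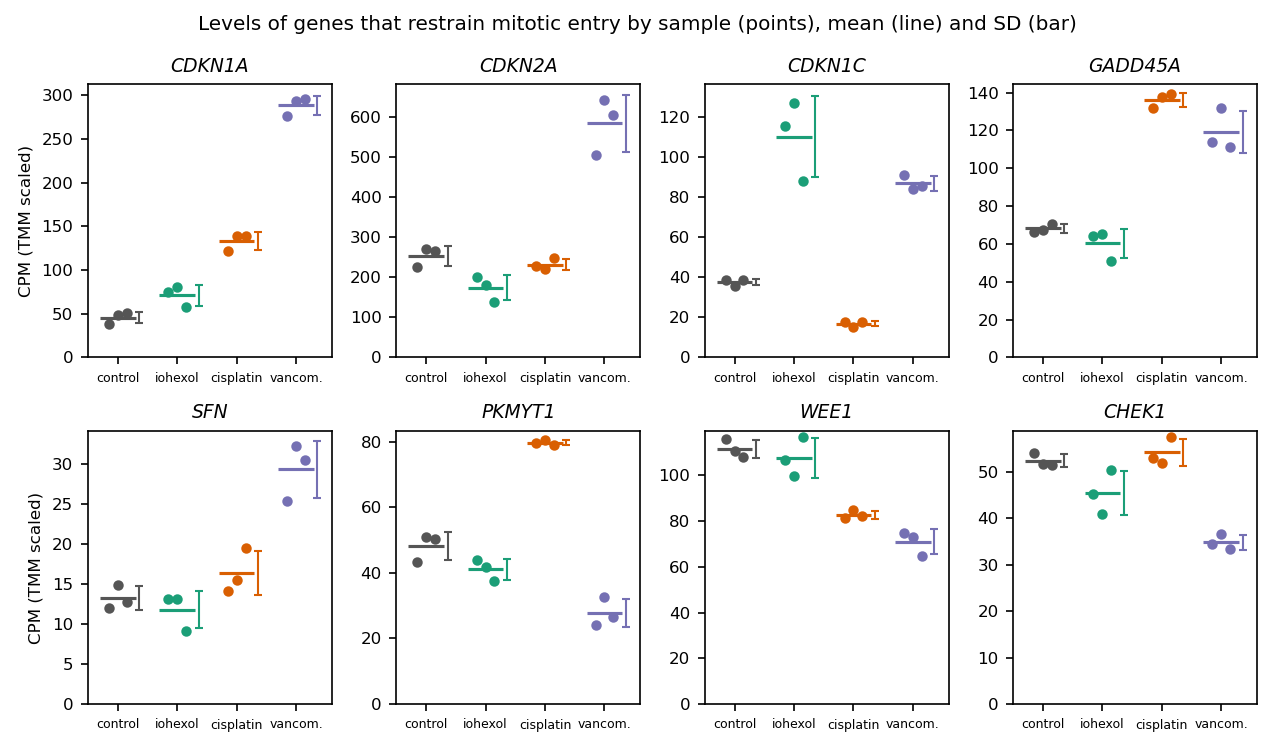
Levels (CPM, y axis from 0) of 8 genes that restrain the cell cycle, at mitotic entry or earlier. Points are the 3 samples of each group, with the group mean (line) and SD (bar). CDKN1A stands higher in each drug group than in the control group and highest with vancomycin, and CDKN1C is high with iohexol and vancomycin and low with cisplatin.

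Other genes of the same pathway were counted from lists. Of 30 other kinetochore and centromere genes, vancomycin down-regulated 21 and up-regulated 3, iohexol down-regulated 4, and cisplatin up-regulated 10 and down-regulated 9. The share lower with vancomycin was 70%, beside 28.8% of all genes, whereas those with iohexol (13.3% lower, beside 9.77%) and cisplatin (33.3% higher and 30% lower, beside 29.2% and 30.6%) were close to all genes. The share higher was 10% with vancomycin, beside 29%, and 0% with iohexol, beside 11.2%. SPDL1, which brings dynein to the kinetochore, had the largest fall with vancomycin (-1.67 ± 0.10, adjusted p = 7.21e-13) and with iohexol (-0.68), and CENPW rose with vancomycin (0.59). CENPT rose (1.09) and CENPP fell (-0.51) most with cisplatin, CENPT, CENPW and CENPP being parts of the constitutive centromere network. Of 17 other condensin and cohesin genes, 14 were down- and 2 up-regulated with vancomycin, 6 and 4 with cisplatin and 1 each with iohexol. The shares lower were 82.4% with vancomycin, beside 28.8% of all genes, 35.3% with cisplatin, beside 30.6%, and 5.88% with iohexol, beside 9.77%. The shares higher were 11.8%, 23.5% and 5.88% in the same order, beside 29%, 29.2% and 11.2%. ESCO2, which acetylates cohesin in S phase, fell most with vancomycin (-1.46 ± 0.15), and NCAPH2, of condensin II, rose (0.39). With cisplatin STAG1, a subunit of cohesin, had a log2 fold change of -2.15 (adjusted p = 1.19e-11), from 46.3 to 10.5 CPM on average, and CDCA5 (sororin) rose (0.90). With iohexol STAG1 rose (0.31) and SMC1A, a core subunit of cohesin, fell (-0.32).

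Of 18 subunits and cofactors of the anaphase-promoting complex, 8 were down- and 4 up-regulated with vancomycin, 2 and 8 with cisplatin and 2 each with iohexol. The shares lower and higher were 44.4% and 22.2% with vancomycin, beside 28.8% and 29% of all genes, 11.1% and 44.4% with cisplatin, beside 30.6% and 29.2%, and 11.1% each with iohexol, beside 9.77% and 11.2%. CDC27 fell (-0.88) and ANAPC15 rose (0.91) most with vancomycin, and ANAPC13 rose most with cisplatin (1.29 ± 0.08, adjusted p = 4.97e-10) and with iohexol (0.66). ANAPC16 fell with cisplatin (-0.36) and CDC23 with iohexol (-0.35). Of 14 genes of the MuvB, DREAM and RB family, which repress or activate the promoters described above, 9 were down- and 2 up-regulated with vancomycin, 6 and 2 with cisplatin, and of the 13 tested 1 each with iohexol. The shares lower were 64.3%, 42.9% and 7.69%, beside 28.8%, 30.6% and 9.77% of all genes. The shares higher were 14.3%, 14.3% and 7.69%, beside 29%, 29.2% and 11.2%. RBL1 (p107) fell most with vancomycin (-0.99) and RBL2 (p130) with cisplatin (-0.71). LIN37, a subunit of DREAM, rose with cisplatin (adjusted p = 0.000565) and vancomycin (adjusted p = 9.31e-07), from 0.228 CPM in the control group, near the floor, to 1.13 and 2.44 CPM. TFDP1 fell (-0.27) and TFDP2 rose (0.27) with iohexol, both being partners of E2F factors. The calls of STAG1, SMC1A, CDC23, TFDP1 and TFDP2 with iohexol were each lost with the replicate block and without the first or the second iohexol sample, that of CENPP with cisplatin with library size and without the third control or the second cisplatin sample, and that of ANAPC16 with cisplatin with library size.

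Genes of DNA replication, which precedes mitosis, were also counted. Of 49 genes, 38 were down- and 3 up-regulated with vancomycin, 11 and 21 with cisplatin, and 8 and 0 with iohexol, with medians of -0.54, 0.12 and -0.14. The shares lower and higher were 77.6% and 6.12% with vancomycin, beside 28.8% and 29% of all genes, 22.4% and 42.9% with cisplatin, beside 30.6% and 29.2%, and 16.3% and 0% with iohexol, beside 9.77% and 11.2%. E2F2, a transcription factor of S phase genes, fell most with vancomycin (-1.71 ± 0.20, adjusted p = 1.34e-07) and RPA3, which binds single strands, rose (0.36), a call lost without the second vancomycin sample. With cisplatin POLA1, the polymerase that starts new strands, fell (-1.10 ± 0.08, adjusted p = 3.82e-09), whereas GINS4, a part of the replicative helicase, rose (0.88). TYMS, which makes thymidylate, fell most with iohexol (-0.53, adjusted p = 0.0103).

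The change with vancomycin was larger in longer genes of the list. Across the 57 genes, Spearman's rho between the length in the count table and the log2 fold change was -0.48 with vancomycin, -0.26 with cisplatin and 0.081 with iohexol, compared with -0.24, -0.30 and -0.012 across protein-coding genes. These points share the same libraries and are not independent. With vancomycin the 28 genes shorter than the median of 4473 bases had a median of -0.81 and the 28 longer genes one of -1.003. Protein-coding genes below that length had a median of 0.18 and those above it -0.096. The part of length in the change was not tested. Genes with the homology word in their window had a median of -0.98 with vancomycin and those without it -0.80, but with CCAAT the medians were -0.87 and -1.005, and with both words -0.89 and -0.92. With iohexol the medians of genes with and without the word were -0.23 and -0.33 for the homology word, -0.23 and -0.33 for CCAAT, and -0.23 and -0.33 for both words. With cisplatin they were -0.075 and 0.086 for the homology word, -0.036 and -0.11 for CCAAT, and -0.042 and -0.0056 for both words. Genes with CCAAT thus had the higher median with each drug, and those with the homology word with iohexol alone. These medians were not tested.

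**Figure D5:**
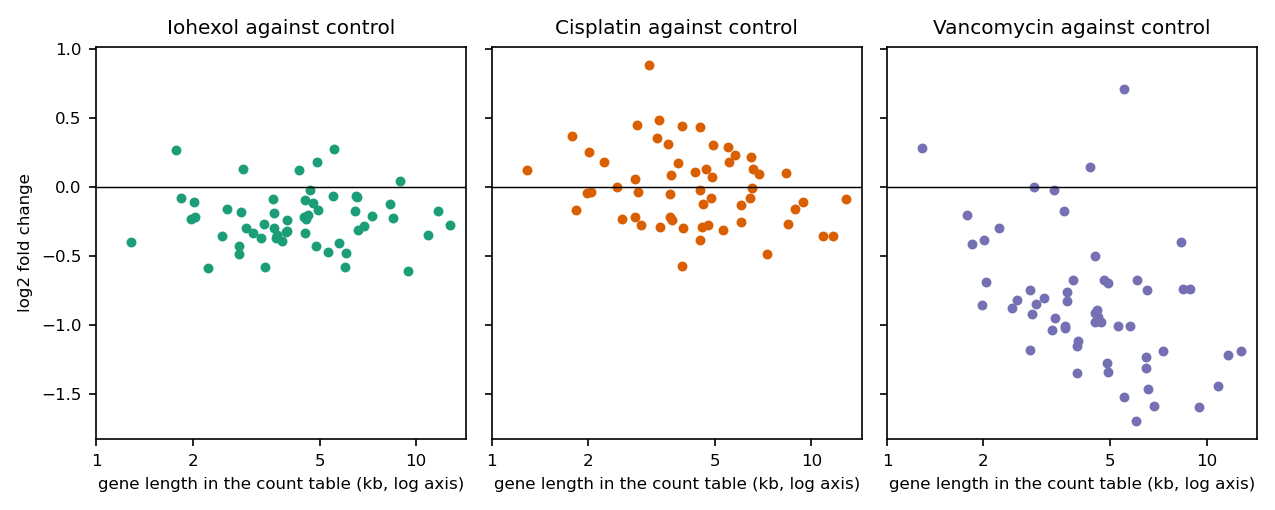
Log2 fold change (y axis) of the 57 mitosis genes against gene length in the count table (x axis, log scale, kilobases) with iohexol, cisplatin and vancomycin. With vancomycin longer genes tend to lie lower (rho = -0.48), and with iohexol the points show no slope (rho = 0.081).

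Markers of other cell types were counted beside these changes. The shares of all genes called higher and lower were 29% and 28.8% with vancomycin and 11.2% and 9.77% with iohexol. With cisplatin they were 29.2% and 30.6%. The marker lists hold few genes, and their counts were not tested against these shares. The 4 markers of fibroblasts and pericytes were all up-regulated with vancomycin, and their summed level was 208, 237 and 201 CPM in the vancomycin samples, compared with 104, 92.3 and 82.5 CPM in the control samples, 81.5, 83.1 and 94.5 CPM with iohexol and 57.5, 59.3 and 59.2 CPM with cisplatin. LUM was the most abundant (79.8 CPM in the control group and 182 CPM with vancomycin), whereas PDGFRB (0.607 CPM in the control group and 1.36 CPM with vancomycin) and ACTA2 (0.309 and 1.68 CPM) were low. Their part in the fall of the mitosis genes was not tested. The 4 leukocyte markers summed to at most 0.405 CPM in any sample, and of the 4 endothelial markers PECAM1 alone passed the filter. PECAM1 averaged 1.33 CPM in the control group, rose with iohexol to 3.80 CPM (adjusted p = 0.00136) and fell with vancomycin to 0.0831 CPM, under the floor (adjusted p = 1.93e-05). The 5 enzymes and surface proteins that mark proximal tubule lines, of which DPP4 was the most abundant over all samples, also moved with the drugs. Their summed level was 375, 409.7 and 398 CPM in the control samples, 469.6, 477 and 451 CPM with iohexol, 274, 263 and 275 CPM with cisplatin and 1048, 1001 and 1023 CPM with vancomycin, and the groups did not overlap in this sum. With vancomycin and with iohexol 3 of the 5 were up-regulated and none was down-regulated, and with cisplatin 3 of the 4 tested were down-regulated. The list of epithelial keratins, cadherins, EPCAM and vimentin summed to 1804, 1865 and 1834 CPM in the control samples, 1366, 1273 and 1241 CPM with iohexol, 1868, 1901 and 1927 CPM with cisplatin and 2250.0, 2477 and 2277 CPM with vancomycin. Of its 7 genes tested, 4 were down-regulated with iohexol, among them VIM (-0.84), and 4 were up- and 3 down-regulated both with cisplatin and with vancomycin. Transporters of the intact tubule summed to at most 5.25 CPM and markers of other kidney segments to at most 2.87 CPM in any sample. The part of these markers was not tested either.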

How the data were processed

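The members and the other gene lists were chosen with earlier results of these data known. The authors deposited whole-number counts of reads per gene, without normalization, and a gene length beside them. The submitters' processing notes name CASAVA 1.8, fastp, HISAT2 2.0.5, featureCounts 1.5.0-p3 and DESeq2 1.20.0. The strand setting and annotation release are not given in the sources used here. All 58735 gene identifiers were found in GENCODE 29, from which exons and shared 31-base sequences were taken. Libraries came from poly(A) RNA. All count columns were matched to samples by name.

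Drug and control samples were compared, 6 samples to a fit, with edgeR 4.0.16 in R 4.3.3 (TMM, filterByExpr with a minimum count of 10 and total of 15, quasi-likelihood test), with the Benjamini-Hochberg adjustment of p over all genes tested. A gene was called at an adjusted p under 0.05, and was a DEG if its log2 fold change was also above 1 or below -1. Log2 fold changes are given ± SE. Differences between drugs were contrasts in a fit of all 12 samples. The labels do not say that replicates were separate cultures, so p-values measure only the spread between these samples. With 3 samples a group, an exact permutation test of a single value could not pass 0.05 and none was used.

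Genes were named by a rule. It took 16 representatives of the roles and the 3 largest called rises and falls in each comparison. Members called against the majority were taken where these were 5 or fewer. It also took all genes restraining the cell cycle that passed the filter. Of the other lists it took the largest called change in each direction per drug. The remaining members are given by their role and were added for completeness. Alternatives were DESeq2 1.42.0, limma-voom (limma 3.58.1), RLE factors or library size in place of TMM, no filter or at least 10 counts in every sample, other samples in the fit, the replicate number as a block, adding counts of pseudogene copies, and leaving out each sample. The steps were tested on simulated data. Figures were drawn with matplotlib 3.10.9.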

Additional observations from a re-analysis of the deposited data

How the results depend on the processing

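The fall of the list with vancomycin (50 genes) kept its direction and its count within 49 to 51 under each alternative, and its median between -0.97 and -0.85. With library size in place of TMM, 2 genes were higher with iohexol, 31 were higher and 3 lower with cisplatin (median 0.18), none was higher with vancomycin (median -0.97), and none was lower with cisplatin than with iohexol (median 0.33). With this scaling 1 gene was higher with vancomycin than with iohexol (median -0.80) and 0 were higher with vancomycin than with cisplatin (median -1.08). The medians of all genes with library size were 0.23 with cisplatin, -0.085 with vancomycin and 0.13 for cisplatin against iohexol. They were -0.22 and -0.30 for vancomycin against iohexol and against cisplatin. The gene of the list higher with vancomycin than with cisplatin was also lost (0 genes) with DESeq2, RLE factors, no filter, at least 10 counts in every sample, and the 6 samples of these drugs alone (median -0.80). With all 12 samples in the fit, 2 genes were higher with vancomycin than in the control group, and without the filter 2 were lower with cisplatin than with iohexol. Shares of all genes called are not given for most of these fits, so their counts describe the list alone. The cause of these differences was not tested.

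The replicate numbers of the labels were not taken to pair the samples, since no comparison had a correlation above 0.1 for every number: the mean correlation of deviations of same-numbered samples was -0.0991, 0.0221 and 0.0716 for iohexol, cisplatin and vancomycin against control, and 0, 5 and 6 of the 6 samples were closest to their own number, which for cisplatin and vancomycin is a hint of pairing from the data and not from the design. With the replicate block, 9 genes were lower with iohexol, 0 were lower with cisplatin than with iohexol and 0 higher with vancomycin than with cisplatin; the other counts stayed within 1.5 times.

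Leaving out each sample in turn gave 0 to 1 higher and 6 to 35 lower genes with iohexol, 12 to 20 higher and 13 to 20 lower with cisplatin, and 0 to 1 higher and 49 to 50 lower with vancomycin. It gave 0 to 1 lower genes for cisplatin against iohexol and 0 to 1 higher for vancomycin against cisplatin, and the median of vancomycin against iohexol was between -0.60 and -0.49. The 6 and the 35 genes lower with iohexol stood beside 6.17% and 13.5% of all genes. Shares of all genes are not given for the other comparisons with a sample left out, so those ranges describe the list alone.

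Single genes changed sign in a few settings. Apart from UBE2C for vancomycin against cisplatin, these were genes without a call. With library size, log2 fold changes with cisplatin became 0.14 for MKI67, 0.14 for TOP2A, 0.11 for CENPE, 0.14 for KIF11, 0.18 for CDC20, 0.10 for CDKN1B and 0.087 for CDKN2A, CDKN1B became -0.066 with vancomycin and WEE1 0.038 with iohexol, CCNB1, FOXM1 and SMC4 became 0.079, 0.039 and 0.11 for cisplatin against iohexol, and UBE2C became -0.13 for vancomycin against cisplatin, where the call was lost. CDKN2C with iohexol was at -0.00032 with RLE factors, -0.028 without the filter and -0.0092 with all 12 samples. Leaving out single samples moved CDKN2C between -0.14 and 0.16, WEE1 between -0.092 and 0.012 and SFN between -0.24 and 0.011 with iohexol, CDC20 between -0.092 and 0.0053 with cisplatin, and CDKN1B between -0.019 and 0.043 and BTG2 between -0.32 and 0.025 with vancomycin. For cisplatin against iohexol it moved CCNB1 between -0.15 and 0.057 and SMC4 between -0.11 and 0.13. CDKN1B with vancomycin was at -0.0029 without the filter. PRC1 had the fewest counts of the list, 204 in all.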
